A study of Mus musculus with 6 samples.

Results

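The 9 genes described here are 8 aquaporins (Aqp1, Aqp2, Aqp3, Aqp4, Aqp5, Aqp6, Aqp7 and Aqp11) and Avpr2, the receptor gene through which vasopressin acts on the collecting duct. They were taken by gene symbol, and all 9 were found among the 17933 genes of the deposited table. RNA was measured in kidney tissue of 6 samples from male wild-type C57BL/6 mice aged 6 to 8 weeks and weighing 24 to 26 g. The 3 stone samples came from mice given glyoxylic acid, a precursor of oxalate, at 120 mg/kg into the peritoneum daily for 12 days, a chemical model of calcium oxalate stones, and the 3 control samples came from mice given the same volume of saline. Values are FPKM, that is, sequenced fragments scaled by gene length and sample total, so levels of different genes can be compared. The labels do not say that each sample came from a separate mouse, so p-values speak only of how these samples vary, which may be technical variation.

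Aquaporins are membrane channels that pass water, and some of them also pass glycerol. In the kidney Aqp1 lies in the proximal tubule, the thin descending limb and the endothelium of the vasa recta, where water follows reabsorbed salt without hormonal control. In principal cells of the collecting duct, vasopressin binds the receptor made from Avpr2, cAMP rises, and Aqp2 channels move to the luminal membrane. cAMP also raises transcription of Aqp2, and water then leaves the cell through Aqp3 and Aqp4 in the basolateral membrane.

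The tissue carried its defining transcripts, with the proximal tubule phosphate transporter gene Slc34a1 at 1508 to 2815 FPKM and the thick limb gene Umod at 936 to 1749 FPKM. Stone sample 3 stood apart from the other stone samples in transcripts of the inner kidney and its lining. Summed FPKM of 7 thin limb markers were 229 to 296 in control samples and 183, 367 and 1035 in stone samples 1 to 3, and all 7 were highest in stone sample 3. Summed FPKM of 9 urothelial markers were 6.51 to 21.9 in control samples and 14.3, 26.4 and 393.7 in stone samples 1 to 3, with 8 of the 9 highest in stone sample 3. Psca, a urothelial surface protein gene, reached 296 FPKM there and 1.41 to 5.53 FPKM in the other samples. Of all tested genes 32.6% were highest in stone sample 3, and 1.56% lay at least 1 log2 unit above the mean of stone samples 1 and 2. Summed fat cell markers were high in control sample 2 (528.5 FPKM) and stone sample 3 (539 FPKM) and lay between 55.3 and 98.7 FPKM in the other samples. Results that lean on stone sample 3 are therefore given with and without it.

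Aqp2 rose, and Aqp3 and Aqp11 fell. These were the calls among the 8 members tested by limma on log2(FPKM + 1), at a Benjamini-Hochberg adjusted p below 0.05 over the 12319 genes that averaged 1 FPKM or more. The test called 43.5% of all tested genes higher and 13.9% lower, 57.4% in all, so 3 calls among 8 members are not more than the background. The counts called in gene and marker lists below are to be read beside these shares. The median log2 fold change was -0.05 over the 8 members and 0.21 over all tested genes. Stone and control values did not overlap for 3 of the 8 members, against 66.3% of all tested genes. Aqp5 was too low to be tested. In whole kidney RNA, fewer cells of a type and less RNA per cell cannot be told apart.

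**Figure D1:**
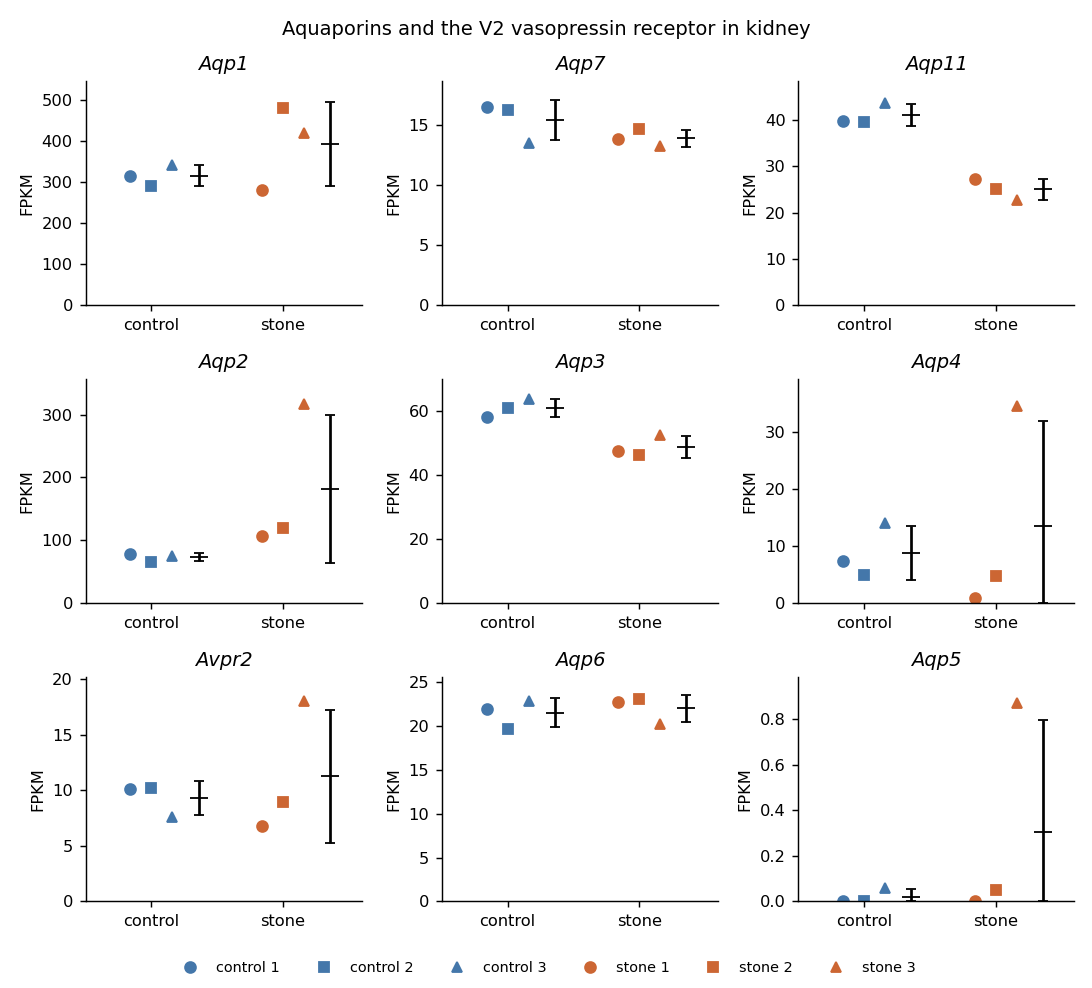
FPKM of the 9 genes (vertical axes, starting at 0) in 3 control and 3 stone samples (horizontal axis, 1 point per sample, with shape for the replicate number), with the mean and SD of each group beside the points and lower bars ended at 0. Stone sample 3 is far above the other 5 samples for Aqp2, Aqp4, Aqp5 and Avpr2, while Aqp3 and Aqp11 are lower in all 3 stone samples.

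Levels spanned a wide range. In control kidneys the order was Aqp1, Aqp2, Aqp3, Aqp11, Aqp6, Aqp7, Avpr2, Aqp4 and Aqp5, and every neighbouring pair had separate sample ranges except Avpr2 and Aqp4. Aqp1 alone made up 58.3% to 59.4% of the summed FPKM of the 8 aquaporins in control samples, and 56.1%, 67.2% and 47.5% in stone samples 1 to 3. The share of Aqp2 was 13.2% to 14.5% in control samples and 21.4%, 16.8% and 36.1% in stone samples 1 to 3, so each stone sample lay above each control sample. In stone kidneys the ranges of Aqp1 and Aqp2, of Aqp11 and Aqp6, of Aqp7 and Aqp4 and of Aqp4 and Avpr2 overlapped.

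Aqp2, the vasopressin-regulated channel of principal cells, was higher in stone kidneys. The gene (ENSMUSG00000023013.5) has 4 exons and spans chr15:99579055-99584547, plus strand (GRCm38.p6), 6234 bases before Aqp5, which is followed by Aqp6. FPKM of Aqp2 were 78.0, 66.0 and 75.8 in control kidneys 1 to 3 and 107.2, 119.9 and 317.3 in stone kidneys 1 to 3. The groups did not overlap, and stone sample 3 was 2.79 times the mean of the other two stone samples. The Aqp2 means were 73.3 ± 6.37 and 181 ± 118 FPKM (SD, n = 3 each), with a log2 fold change of 1.12 and an SE of 0.38 (adjusted p = 0.0367 by limma). Without stone sample 3 the stone mean of Aqp2 was 113.6 FPKM and the log2 fold change 0.63 with an SE of 0.098 (adjusted p = 0.00307 by limma). The Aqp2 call was lost after median-of-ratios scaling (log2 fold change 0.89, adjusted p = 0.0769 by limma), with no filter on low genes (adjusted p = 0.0649 by limma) and without control sample 1, 2 or 3 (adjusted p = 0.0759, 0.106 and 0.0791 by limma).

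The stretches of 250 bases before the RefSeq start of the 3 called members are printed to show what their promoters hold of the elements through which cAMP and tonicity act. Capitals mark matches, on either strand, to TGACG, the core of the cAMP response element, to its full form TGACGTCA, or to TGGAAA, the opening of the tonicity element. The stretches are chr15:99578806-99579055 on the plus strand, chr4:41098184-41098433 on the minus strand and chr7:97738248-97738497 on the minus strand (GRCm38.p6), written 5′ to 3′ from RefSeq.
Aqp2: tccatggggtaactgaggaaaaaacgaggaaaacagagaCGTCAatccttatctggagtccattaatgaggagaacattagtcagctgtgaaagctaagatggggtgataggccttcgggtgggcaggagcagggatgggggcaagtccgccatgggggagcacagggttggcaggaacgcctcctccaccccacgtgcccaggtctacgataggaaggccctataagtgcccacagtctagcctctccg
Aqp3: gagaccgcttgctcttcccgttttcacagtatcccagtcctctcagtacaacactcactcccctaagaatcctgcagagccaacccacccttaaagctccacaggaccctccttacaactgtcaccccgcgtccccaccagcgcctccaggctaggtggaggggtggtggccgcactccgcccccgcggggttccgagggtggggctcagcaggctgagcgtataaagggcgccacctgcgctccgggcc
Aqp11: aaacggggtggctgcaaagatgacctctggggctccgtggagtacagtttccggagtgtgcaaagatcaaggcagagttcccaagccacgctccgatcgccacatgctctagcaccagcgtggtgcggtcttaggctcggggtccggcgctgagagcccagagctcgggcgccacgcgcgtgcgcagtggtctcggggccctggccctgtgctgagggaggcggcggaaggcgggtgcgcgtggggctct
Aqp2 held 1 match to TGACG, on the opposite strand between 211 and 207 bases before the start, and no match to the other forms. The stretches of Aqp3 and Aqp11 held none of the 3. Of the other 5 members searched, Aqp7 held TGGAAA between 234 and 229 bases before the start in 1 RefSeq stretch. Its other RefSeq stretch and the rest of these members held no match. Among 32851 promoter stretches of the same length, 17.8% held TGACG, 1.55% held TGACGTCA, which contains it on both strands, and 18.6% held TGGAAA. These letter matches describe the sequence only and do not show that a factor binds.

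Aqp3, the basolateral water and glycerol channel of the same principal cells, was lower in stone kidneys. The gene spans chr4:41092722-41098183, minus strand, 44582 bases from Aqp7. FPKM of Aqp3 were 58.4, 61.0 and 64.0 in control kidneys 1 to 3 and 47.6, 46.3 and 52.7 in stone kidneys 1 to 3. The groups did not overlap, and stone sample 3 was close to the other stone samples. The Aqp3 means were 61.2 ± 2.81 and 48.9 ± 3.37 FPKM (SD, n = 3 each), a log2 fold change of -0.32 with an SE of 0.070 (adjusted p = 0.00715 by limma). With equal FPKM sums the Aqp3 change was -0.04 and the call was lost (adjusted p = 0.636 by limma), and after median-of-ratios scaling it was -0.55 (adjusted p = 0.000709 by limma). The difference in Aqp3 is of the size by which scaling moves the typical gene. Of the 15 alternatives, 14 called Aqp3 lower, and equal FPKM sums was the only one that did not. With Kap, an androgen-regulated proximal tubule gene, left out of the equal sums, the Aqp3 change was -0.35 (adjusted p = 0.00761 by limma).

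Aqp4, the other basolateral channel, which is most abundant in the inner medulla, varied too widely for its direction to be set. FPKM of the gene were 7.45, 4.95 and 14.1 in control kidneys 1 to 3 and 0.99, 4.88 and 34.6 in stone kidneys 1 to 3. Stone samples held both the lowest and the highest value of all 6, while the control samples differed by up to 2.85 times. The Aqp4 log2 fold change was -0.29, with a 95% interval from -2.53 to 1.95 (adjusted p = 0.812 by limma). Without stone sample 3 it was -1.42 (adjusted p = 0.0616 by limma), without stone sample 1 it was 0.66 (adjusted p = 0.473 by limma) and without control sample 3 it was 0.08 (adjusted p = 0.959 by limma). Part of the gene overlaps an annotated antisense RNA, so its reads cannot be told apart from those of that RNA if strand was not used. Among all tested genes the spread of Aqp4 over the stone samples, as the SD of log2(FPKM + 1), stood at percentile 99.8, and that over the control samples at percentile 99.2.

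Avpr2 did not pass the test. The gene spans chrX:73892102-73895502, plus strand. FPKM of the gene were 10.1, 10.2 and 7.55 in control kidneys 1 to 3 and 6.75, 8.97 and 18.1 in stone kidneys 1 to 3. Stone sample 1 was below and stone sample 3 above every control sample. The Avpr2 means were 9.29 ± 1.51 and 11.3 ± 5.99 FPKM (SD, n = 3 each), with a log2 fold change of 0.16 and a 95% interval from -0.57 to 0.88 (adjusted p = 0.686 by limma). Without stone sample 3 the change was -0.22, with an interval from -0.60 to 0.17 (adjusted p = 0.304 by limma). All 3401 bases of Avpr2 also lie within the spans of L1cam and Arhgap4, annotated on the opposite strand. L1cam, a neural and collecting duct adhesion molecule gene, had 8.23, 5.59 and 7.79 FPKM in control kidneys and 9.81, 10.9 and 22.1 FPKM in stone samples, and Arhgap4 lay between 1.29 and 2.22 FPKM. Strand use in counting was not given in the sources used here, which leaves the values of Avpr2 uncertain.

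Among the 3 stone samples, several transcripts of the medulla were lowest in sample 1 and highest in sample 3, as were Aqp2, Aqp4 and Avpr2. Slc14a2, the urea transporter gene of the inner medullary collecting duct and thin limb, had 17.8, 9.31 and 16.7 FPKM in control kidneys 1 to 3 and 0.20, 4.61 and 25.8 FPKM in stone kidneys 1 to 3. Akr1b3, the aldose reductase gene that makes sorbitol in the medulla, was at 34.5, 44.4 and 338.9 FPKM in stone samples 1 to 3 and between 56.7 and 67.8 FPKM in control samples. The stone samples differed widely in both. Fxyd4, a sodium pump regulator gene of the collecting duct, was at 40.3, 53.6 and 211.8 FPKM in stone samples 1 to 3, and between 61.0 and 71.3 FPKM in control samples. Stone samples 1 and 2 thus had less Slc14a2, Akr1b3 and Fxyd4 than any control sample, and both had more Aqp2 than any control sample. Of the principal cell markers, Scnn1b, Scnn1g, Hsd11b2, Npnt and Gata3 also lay above every control sample in both. Kcnj1 and Tmem45b lay below every control sample in both, and Tfap2b lay below in stone sample 1 and above in stone sample 2. Gata3, Tmem45b and Npnt shared the order of Fxyd4 among the stone samples, lowest in sample 1 and highest in sample 3. Scnn1b, Scnn1g and Hsd11b2 had the reverse order, with Hsd11b2 at 92.9, 88.7 and 79.4 FPKM in stone samples 1 to 3. Kcnj1 was lowest in stone sample 3, and Kcnj1 and Tfap2b were highest in stone sample 2. The summed FPKM of 9 principal cell markers were 330 to 356 in control samples and 317, 348 and 530 in stone samples 1 to 3. Of these 9 markers 4 rose and 1 fell, against 5 and 3 without stone sample 3, and none was at 0 in all samples. The sodium channel subunit genes Scnn1b and Scnn1g rose, with log2 fold changes of 0.50 and 0.52 (adjusted p = 0.00166 and 0.000802 by limma), and the potassium channel gene Kcnj1, also a thick limb gene, fell by 0.52 on the log2 scale (adjusted p = 0.00394 by limma). The part of these transcripts in the Aqp2, Aqp4 and Avpr2 values was not tested, and without stone sample 3 the log2 fold change of Aqp2 was 0.63.

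**Figure D2:**
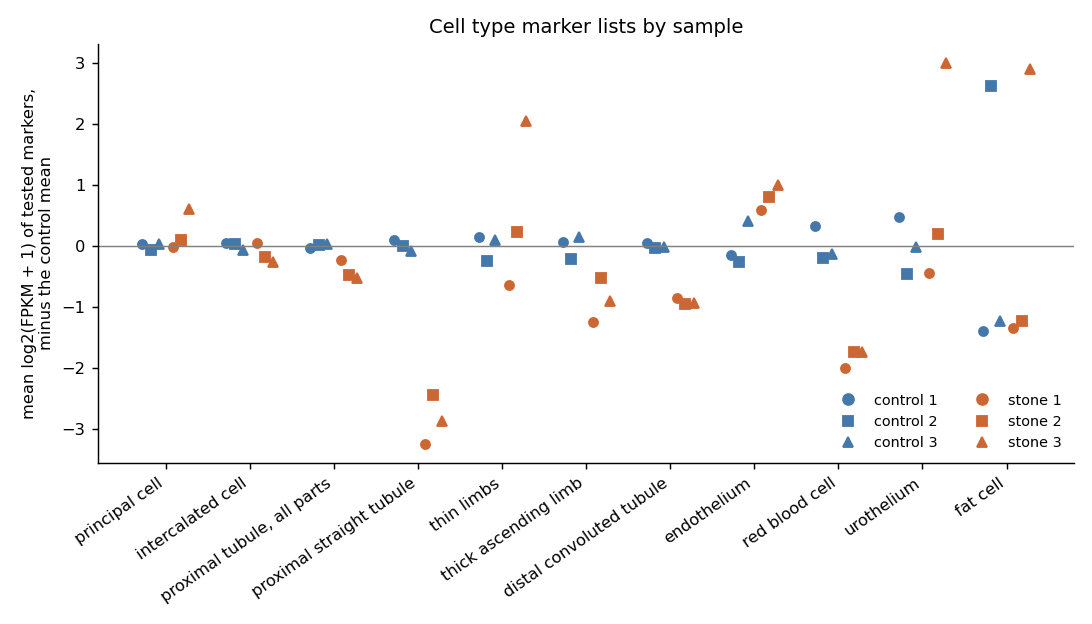
Mean log2(FPKM + 1) of the tested markers of 11 cell type lists (horizontal axis), less the mean of the control samples (vertical axis, log2 units), 1 point per sample. Stone sample 3 is highest for the thin limb and urothelial lists, control sample 2 and stone sample 3 for the fat cell list, and all stone samples are low for the proximal straight tubule and red blood cell lists.

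Ratios taken within a sample are nearly free of how samples were scaled. For 8 such ratios the difference between group means was compared by an exact two-sided permutation test over samples, which cannot go below 0.1 with 3 against 3 samples. The log2 ratio of Aqp2 to Avpr2 was 2.83, 2.58 and 3.17 in control samples and 3.80, 3.60 and 4.06 in stone samples, so each stone sample held more Aqp2 per Avpr2 than each control sample. The difference was 0.96 (exact permutation p = 0.1, 0.16 adjusted over the 8 ratios). The log2 ratio of Aqp2 to Aqp3 was 0.41, 0.11 and 0.24 in control samples and 1.16, 1.35 and 2.57 in stone samples, without overlap, with a difference of 1.44 (exact permutation p = 0.1, adjusted 0.16) and of 1.00 without stone sample 3. Set against the mean of the 9 principal cell markers, Aqp2 stood at 1.51, 1.36 and 1.46 in control samples and at 2.01, 2.05 and 2.94 in stone samples, again without overlap (difference 0.89, exact permutation p = 0.1, adjusted 0.16), and the difference was 0.59 without stone sample 3. Avpr2 against the same markers differed by -0.07 (exact permutation p = 0.9, adjusted 1), and this sign turned without control sample 2 or stone sample 1. Aqp3 to Aqp4 differed by -0.03 (exact permutation p = 1), with stone samples from 0.59 to 4.61.

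**Figure D3:**
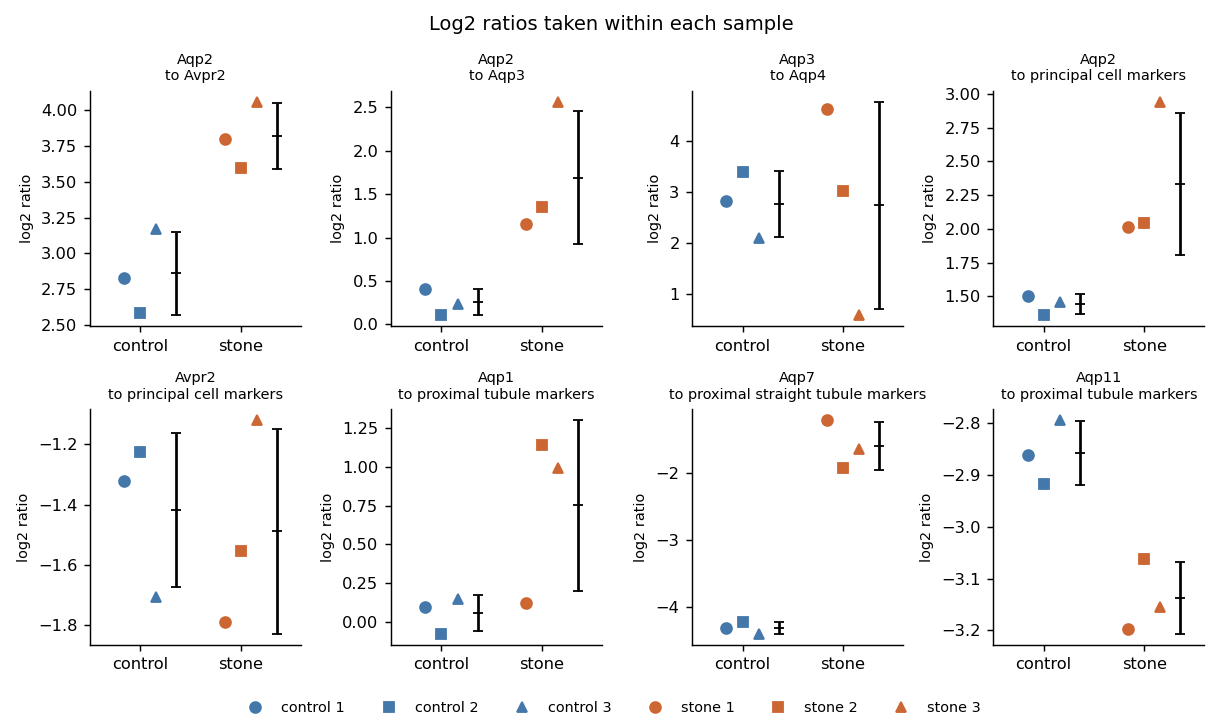
Log2 ratios within each sample (vertical axes) for 8 pairs of a gene and a gene or marker list, by group (horizontal axis), 1 point per sample, with the mean and SD of each group beside the points. For Aqp2 to Avpr2, Aqp2 to Aqp3 and Aqp2 to principal cell markers all 3 stone samples lie above all 3 control samples, and the values of Aqp3 to Aqp4 in stone samples run from 0.59 to 4.61.

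Aqp1, the constitutive channel of proximal tubule and thin descending limb, ranked 332 by mean FPKM in control kidneys among all genes of the table. Its 1 annotated transcript spans chr6:55336432-55348555, plus strand. FPKM of Aqp1 were 315.5, 289.7 and 342.0 in control kidneys 1 to 3 and 280.5, 479.6 and 418.3 in stone kidneys 1 to 3. Stone sample 1 was below all control samples and the other stone samples were above them. The Aqp1 means were 316 ± 26.2 and 393 ± 102 FPKM (SD, n = 3 each), with a log2 fold change of 0.28 and a 95% interval from -0.16 to 0.72 (adjusted p = 0.23 by limma). Aqp1 was called higher without stone sample 1, at 0.51 (adjusted p = 0.00741 by limma), with array weights, at 0.46 (adjusted p = 0.019 by limma), and with equal FPKM sums, at 0.56 (adjusted p = 0.0293 by limma). The array weights were 4.19 for control sample 1, 2.59 for stone sample 2, the sample highest in Aqp1, and 0.44 to 0.78 for the others. With Kap left out of the equal sums Aqp1 was not called, at 0.25 (adjusted p = 0.314 by limma). Over all 15 alternatives the adjusted p of Aqp1 by limma ran from 0.00741 to 0.837.

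Marker lists of cells that carry Aqp1 went different ways. Of 10 proximal tubule markers 6 fell and 1 rose (median log2 fold change -0.51), and Aqp1 against their mean stood at 0.10, -0.08 and 0.15 in control samples and at 0.12, 1.14 and 0.99 in stone samples (difference 0.69, exact permutation p = 0.2, adjusted 0.267). Of 10 endothelial markers 7 rose and 0 fell, and their summed FPKM were 122 to 201 in control and 233 to 332 in stone samples. Red blood cells also carry Aqp1, and all 5 tested markers of that list fell, with summed FPKM of 2169 to 3170 in control and 598 to 760 in stone samples. The part of each cell type in the values of Aqp1 was not tested.

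Aqp11, an aquaporin of intracellular membranes of the proximal tubule, had the smallest adjusted p of the members. The gene spans chr7:97724006-97738289, minus strand. FPKM of Aqp11 were 39.6, 39.5 and 43.7 in control kidneys 1 to 3 and 27.2, 25.2 and 22.7 in stone kidneys 1 to 3. The groups were far apart and each was tight. The Aqp11 means were 41.0 ± 2.36 and 25.0 ± 2.27 FPKM (SD, n = 3 each), with a log2 fold change of -0.69 and an SE of 0.082 (adjusted p = 0.000542 by limma). Aqp11 was called lower under all 15 alternatives, with changes from -0.92 to -0.42 and adjusted p by limma from 5.28e-05 to 0.00458. Against the mean of the proximal tubule markers it stood at -2.86, -2.92 and -2.79 in control samples and at -3.20, -3.06 and -3.15 in stone samples, a difference of -0.28 without overlap (exact permutation p = 0.1, adjusted 0.16).

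Aqp7, the water and glycerol channel of the proximal straight tubule brush border, did not pass as deposited. The gene spans chr4:41033074-41048139, minus strand. FPKM of the gene were 16.4, 16.2 and 13.5 in control kidneys 1 to 3 and 13.8, 14.6 and 13.2 in stone kidneys 1 to 3, and control sample 3 lay among the stone samples. The log2 fold change was -0.13, with a 95% interval from -0.35 to 0.08 (adjusted p = 0.232 by limma). Aqp7 was called lower after median-of-ratios scaling, at -0.35 (adjusted p = 0.022 by limma), after quantile normalization, at -0.37 (adjusted p = 0.0201 by limma), with array weights, at -0.17 (adjusted p = 0.0443 by limma), and without control sample 3, at -0.22 (adjusted p = 0.0355 by limma). With equal FPKM sums its change was 0.13 (adjusted p = 0.184 by limma). Other transcripts of the straight tubule were mostly far lower, since 7 of 8 markers fell and their median log2 fold change was -2.61. They were not alike: the 7 ran from -6.28 for Slc22a7 to -0.71 for Slc17a1, and Slc5a1 was not called at 0.04. Slc7a13, an amino acid transporter gene of that segment, lay at 653 to 744 FPKM in control and 20.0 to 45.9 FPKM in stone samples. Aqp7 against the mean of these markers stood at -4.31, -4.23 and -4.40 in control samples and at -1.21, -1.93 and -1.64 in stone samples, a difference of 2.72 (exact permutation p = 0.1, adjusted 0.16). Fat cells also carry Aqp7, and their part in its values was not tested. In control sample 2 and stone sample 3, where fat cell markers were high, Aqp7 was at 16.2 and 13.2 FPKM, within the range of the other samples of control kidneys and below the other stone samples.

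Aqp6, a channel of intercalated cell vesicles, spans chr15:99601400-99605477, plus strand. FPKM of Aqp6 were 21.9, 19.7 and 22.9 in control kidneys 1 to 3 and 22.7, 23.1 and 20.3 in stone kidneys 1 to 3. The groups overlapped, with a log2 fold change of 0.03 and a 95% interval from -0.16 to 0.22 (adjusted p = 0.746 by limma). With equal FPKM sums Aqp6 was called higher, at 0.30 (adjusted p = 0.0203 by limma), but after median-of-ratios scaling it stood at -0.19 (adjusted p = 0.0978 by limma). Of 12 intercalated cell markers 1 rose and 2 fell (median log2 fold change -0.16), against 0 and 5 after median-of-ratios scaling and 4 and 1 with equal FPKM sums. Slc4a1, the anion exchanger gene of acid-secreting cells that red blood cells also express, fell by 0.82 in log2 units (adjusted p = 0.000345 by limma). Aqp5, known from glands and lung, was listed at 0, 0 and 0.06 FPKM in control kidneys 1 to 3 and at 0, 0.05 and 0.87 FPKM in stone kidneys 1 to 3. Its highest value was in stone sample 3, the sample highest in Aqp2, the gene beside it on chromosome 15.

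**Figure D4:**
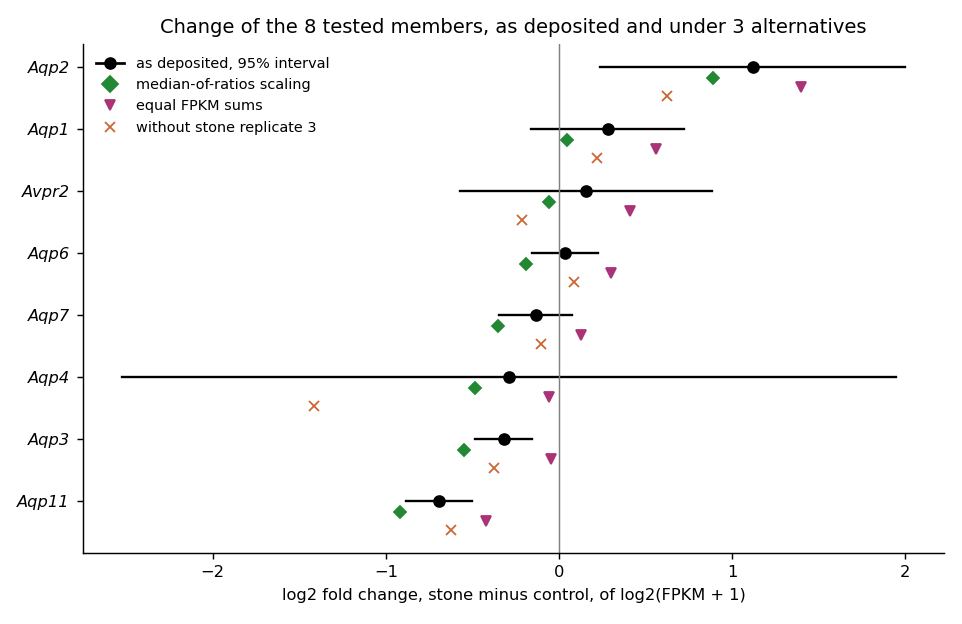
Log2 fold change of the 8 tested members (horizontal axis, stone minus control on log2(FPKM + 1)), as deposited with 95% intervals by limma and under 3 alternatives (points below each line). Aqp11 lies left of 0 and Aqp2 right of 0 throughout, Aqp3 is near 0 with equal FPKM sums, and Aqp4 has by far the widest interval.

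The sign of small changes varied with the scaling of the samples. After median-of-ratios scaling 0 members were called higher and 3 lower (Aqp3, Aqp7 and Aqp11), against 23.9% and 24.9% of all tested genes, 48.8% in all. In that fit 1 member, Aqp2, had an unadjusted p below 0.05 in the higher direction by limma. With equal FPKM sums 3 members were called higher (Aqp1, Aqp2 and Aqp6) and 1 lower (Aqp11), against 68.5% and 6.47% of all tested genes, 75% in all. Without stone sample 3 the calls were those made with all samples, 1 higher and 2 lower, against 35.8% and 11.7% of all tested genes, 47.5% in all. The scalings moved the typical gene (median log2 fold change) from 0.21 to 0.01 and to 0.45. The androgen-regulated proximal tubule gene Kap took 19.3% to 23.2% of the FPKM sum in control samples and 1.18% to 2.26% in stone samples. Aqp1 and Aqp2 stayed above 0 and Aqp3, Aqp4 and Aqp11 below 0 under both scalings, while Avpr2, Aqp6 and Aqp7 had changes of both signs.

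Among genes of vasopressin signalling, calls were upward, the more common direction among all tested genes too (43.5% higher, 13.9% lower). Of 19 tested genes of receptor signalling and cAMP, 11 rose and 0 fell (median log2 fold change 0.39), against 8 and 1 after median-of-ratios scaling and 17 and 0 with equal FPKM sums. Adcy6, the adenylyl cyclase gene of principal cells, was at 17.6 to 21.2 FPKM in control and 27.0 to 31.9 FPKM in stone samples (log2 fold change 0.56, adjusted p = 0.00218 by limma). Arrb2, a beta-arrestin gene that quenches receptors, rose from 4.93 ± 0.451 to 12.3 ± 1.73 FPKM (SD, n = 3 each). Creb1, the gene of the factor that binds cAMP response elements, rose from 4.56 ± 0.291 to 8.31 ± 0.307 FPKM (n = 3 each, SD), and Ptger4, a prostaglandin E receptor gene coupled to cAMP, by 1.05 on the log2 scale. By limma their adjusted p were 0.000258, 0.000298 and 0.000843. Pde4d and Pde4b, genes of phosphodiesterases that break down cAMP, rose as well, with log2 fold changes of 0.50 and 0.51 (adjusted p = 0.00311 and 0.00836 by limma). Gnas, the stimulatory G protein gene, and Prkaca, the kinase subunit gene, did not pass, with log2 fold changes of -0.19 and 0.07. Adcy6, Pde4d, Pde4b, Gnas and Prkaca were picked after their values were seen.

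Calls among genes that carry Aqp2 to and from the membrane went both ways, beside 43.5% higher and 13.9% lower among all tested genes. Of 27 tested, 12 rose and 2 fell (median log2 fold change 0.22), against 6 and 4 after median-of-ratios scaling and 25 and 1 with equal FPKM sums. Msn, the moesin gene that links actin to the membrane, rose from 39.0 ± 7.92 to 132 ± 8.89 FPKM and its relative Ezr, the ezrin gene, from 150 ± 6.36 to 248.5 ± 4.90 FPKM (SD, n = 3 each). Ctsd, a lysosomal protease gene, rose by 0.91 on the log2 scale. Ndfip1, an adaptor gene for ubiquitin ligases, fell by 0.42 (adjusted p = 0.000695 by limma). These genes are expressed by most cells of the kidney, and macrophage markers rose too, in 7 of 8 cases, with summed FPKM of 65.8 to 73.1 in control and 194 to 502 in stone samples. The part of these cells in the rise of Msn and Ctsd was not tested.

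Of 21 transcription factors and regulators of the collecting duct and of Aqp2, 10 rose and 1 fell (median log2 fold change 0.59, or 0.33 without stone sample 3), against 9 and 4 after median-of-ratios scaling and 12 and 1 with equal FPKM sums. Sgk1, a kinase gene induced by aldosterone and by cell shrinkage, rose from 34.6 ± 10.2 to 201 ± 14.1 FPKM, and Pax8, a kidney lineage factor gene, from 42.0 ± 3.29 to 96.4 ± 8.54 FPKM (SD, n = 3 each). Tfcp2l1, a collecting duct factor gene, rose by 0.47 on the log2 scale (adjusted p = 0.000685 by limma). Nr1h4, the bile acid receptor gene, fell by 0.69 (adjusted p = 0.00295 by limma). Nfat5, the gene of the tonicity-responsive factor, had 10.4, 7.10 and 11.2 FPKM in control kidneys and 13.9, 16.4 and 24.0 FPKM in stone kidneys 1 to 3 (log2 fold change 0.85, adjusted p = 0.0144 by limma). Elf3, an epithelial factor gene, had 9.64, 11.8 and 13.2 FPKM in control kidneys and 20.2, 27.4 and 70.2 FPKM in stone kidneys 1 to 3 (log2 fold change 1.49, adjusted p = 0.017 by limma). Both were highest in stone sample 3, without which their stone means were 15.2 and 23.8 FPKM, and were picked after their values were seen. Of the 21 genes, 13 were highest in stone sample 3, against 32.6% of all tested genes.

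Urea and osmolyte genes did not move as 1 group. Of 14 tested, 3 rose and 1 fell (median log2 fold change 0.01), against 3 and 2 after median-of-ratios scaling and 5 and 1 with equal FPKM sums. Without stone sample 3 the counts were 3 and 4, beside 35.8% and 11.7% of all tested genes, and the median was -0.42. Slc6a6, the taurine transporter gene, rose from 64.9 ± 10.2 to 173.5 ± 32.7 FPKM, and Slc38a2, an amino acid transporter gene, from 17.0 ± 1.34 to 35.3 ± 1.16 FPKM (SD, n = 3 each). Gpcpd1, a phosphodiesterase gene that breaks down the osmolyte glycerophosphocholine, fell by 0.62 in log2 units (adjusted p = 0.000637 by limma). Of 10 genes of glycerol handling, the other substrate of Aqp3 and Aqp7, 1 rose and 2 fell, with a median of -0.15, against 1 and 4 after median-of-ratios scaling and 3 and 2 with equal FPKM sums. Gk, the glycerol kinase gene, fell from 214 ± 3.62 to 144 ± 13.2 FPKM and Gpd2, the mitochondrial glycerol phosphate dehydrogenase gene, from 15.7 ± 0.631 to 7.78 ± 1.75 FPKM, while Gpd1l, a cytosolic dehydrogenase gene, rose by 0.43 on the log2 scale (adjusted p = 0.000976, 0.00156 and 0.00189 by limma).

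**Figure D5:**
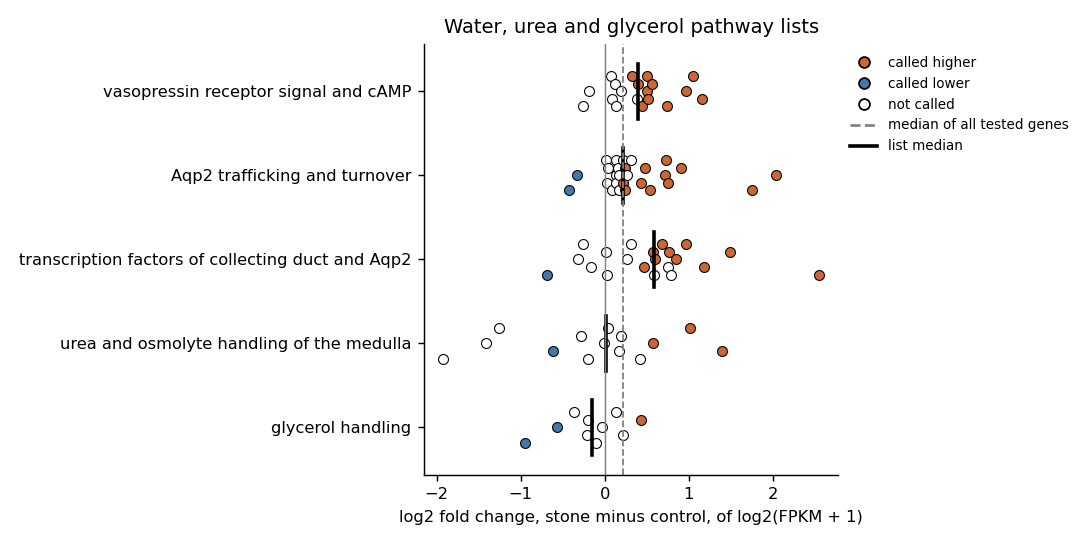
Log2 fold change of each tested gene (points, horizontal axis, stone minus control on log2(FPKM + 1)) in 5 gene lists (vertical axis), filled by the limma call, with the list median as a bar and the median of all tested genes, 0.21, as a dashed line. The signalling and transcription factor lists have medians of 0.39 and 0.59, and the urea and osmolyte list spreads on both sides of 0.

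For 3 members the genes with the most similar profile were sought, by the root mean square difference of log2(FPKM + 1) over the 6 samples after centring each gene on its control mean. Closest to Aqp2 were Mal2, a membrane traffic protein gene, at 0.0757, Klf5, a transcription factor gene, at 0.102, and Rab15, a small GTPase gene, at 0.125. Mal2 had 17.8, 14.6 and 18.8 FPKM in control kidneys and 27.2, 28.5 and 70.7 FPKM in stone kidneys 1 to 3, the same shape as Aqp2. Klf5 and Rab15 were low, at 0.15 to 0.55 and 1.40 to 1.55 FPKM in control samples, and Klf5 was not called (adjusted p = 0.0683 by limma). With a pseudocount of 0.1 their log2 fold changes were 1.99 and 1.39 and that of Aqp2 was 1.13, so their likeness to Aqp2 depends on the pseudocount of 1. Closest to Avpr2 were Cnksr1, at 0.129, Rab11fip1, at 0.153, and Ube2l6, at 0.164, and closest to Aqp1 were Prob1, at 0.0819, Trim16, at 0.0869, and the thick limb claudin gene Cldn16, at 0.0982. Cldn16 measured 6.79, 11.9 and 9.82 FPKM in stone samples 1 to 3 and between 7.85 and 8.27 FPKM in control samples, so stone sample 1 was lowest and stone sample 2 highest, as for Aqp1. All 6 samples enter this measure, and the 3 genes nearest to Aqp2 and to Avpr2 were all highest in stone sample 3.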

How the data were processed

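The authors deposited 1 table of FPKM values with 2 decimals, 1 column per sample, per the file headers. The submitters' processing notes name HISAT2 2.0.4 and the build GRCm38.p6. The quantifier, annotation and use of strand were not given in the sources used here. Second-strand cDNA was made with dUTP, per the labels' protocols. FPKM carry no counts, so depth is unknown and no count model or counting interval was used. The columns sum to 609705 to 758514 FPKM.

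Genes averaging 1 FPKM or more across samples (12319 of 17933) were tested on log2(FPKM + 1), a pseudocount of 1, with limma 3.58.1 in R 4.3.3 (eBayes with a trend), two-sided, with Benjamini-Hochberg adjustment over all of them. Fold changes on this scale understate changes of low genes. Ratios were compared by exact permutation in Python 3.11.15. The fit was tested on simulated data. Alternatives were other pseudocount, filters, scalings, array weights, a replicate block and leaving out each sample, with the same genes tested unless the filter changed.

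Members and gene lists were chosen with earlier results of these data known. Genes were named by a rule: the members, the called genes of each pathway list with the smallest p, up to 3, with the leading one in the other direction, and the 3 nearest profiles to Aqp1, Aqp2 and Avpr2. A gene that this rule names is not reported here. Positions are from GENCODE M21 and promoter stretches from RefSeq (GRCm38.p6). The promoters of 8 of the 9 members were searched, and that of Aqp4 was left out. Marker genes are quoted where they bear on a member.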

Additional observations from a re-analysis of the deposited data

How the results depend on the processing

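The count of members called higher was 1 (Aqp2) as deposited. By limma it was 0 with no filter and 0 after median-of-ratios scaling, where Aqp2 kept an unadjusted p below 0.05 (1 member in each case). It was 3 with equal FPKM sums (Aqp1, Aqp2 and Aqp6), 2 with array weights (Aqp1 and Aqp2), and 0 to 2 when single samples were left out. With 0 calls, 1 member (Aqp2) had an unadjusted p below 0.05 without control sample 1 or 3, and 0 did without control sample 2. The count of members called lower was 2 as deposited, 1 with equal FPKM sums, and 2 to 3 when single samples were left out. With equal FPKM sums without Kap the counts were those as deposited, 1 higher and 2 lower. Over all tested genes 5356 were called higher as deposited, 2948 after median-of-ratios scaling, 2762 after quantile normalization and 8440 with equal FPKM sums. Those called lower were 1711, 3064, 3108 and 797 in the same order. Leaving out single samples gave 4265 to 5242 higher and 1360 to 1697 lower.

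The ratio of Aqp3 to Aqp4 changed sign with a pseudocount of 0.1 (0.18), and ran from -0.97 to 1.04 when single samples were left out (0.28 without control sample 2 and 1.04 without stone sample 3). That of Avpr2 to principal cell markers ran from -0.26 to 0.08 (0.03 without control sample 2 and 0.08 without stone sample 1). The other 6 ratios kept their sign in these alternatives.

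The replicate block left 1 member called higher and 2 lower, with 4861 genes higher and 1517 lower. No pairing by number was seen: deviations from group means of same-numbered samples correlated at 0.007, -0.22 and -0.04 across tested genes. With 3 samples per group the deviations of a gene sum to 0 within each group. The check therefore cannot show that the samples were not paired. No sample correlated best with its own number. No list count or value of Aqp5, listed at 0 in 3 samples, can be given a depth, since FPKM carry none.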

Other observations

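Other aquaporins in the table were at the edge of detection. Aqp8 was at 0.52, 0.67 and 0.30 FPKM in control samples 1 to 3, at 0.17 FPKM in stone sample 2, and listed at 0 in stone samples 1 and 3, so the groups did not overlap. Aqp9 lay between 0 and 0.22 FPKM and Mip, the lens aquaporin gene, between 0 and 0.11 FPKM. None of these 3 reached the level for testing. With no filter on low genes Aqp8 had a log2 fold change of -0.50 (adjusted p = 0.0123 by limma). With no filter on low genes Aqp8 had a log2 fold change of -0.50 (adjusted p = 0.0123 by limma). With no filter on low genes Aqp8 had a log2 fold change of -0.50 (adjusted p = 0.0123 by limma). Elf5, a transcription factor gene of principal cells picked after its values were seen, was at 0.73 to 0.83 FPKM in control samples and at 0.22, 1.3 and 9.38 FPKM in stone samples 1 to 3, the same order as Aqp2, Aqp4 and Avpr2 (limma, adjusted p = 0.351). Gata3, another factor gene of these cells not named by the rule, was at 3.61 to 4.36 FPKM in control samples. In stone samples 1 to 3 it was at 5.19, 5.5 and 14.2 FPKM, above all control samples (limma, adjusted p = 0.0835). Tfap2b, a factor gene on the same lists, did not follow this order. It was at 9.93 to 11.4 FPKM in control samples and at 9.3, 12.3 and 12.0 FPKM in stone samples 1 to 3.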
